A study of Mus musculus with 4 samples.

Results

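The genes described here are the fusion genes Mymk and Mymx, the muscle acetylcholine receptor subunit genes Chrna1, Chrnb1, Chrnd and Chrng, and the receptor tyrosine kinase gene Musk. They were chosen by symbol, 7 genes of the 25804 symbols in the count tables, and all 7 were found under these names. Single-cell RNA profiles came from 4 libraries of mouse skeletal muscle cells, 1 library per group, all of genotype Pax7-nGFP, a reporter in which Pax7 regulatory sequence drives a nuclear green fluorescent protein. For the library of freshly isolated satellite cells, called fiSC here, limb muscles of 3 male mice aged 13 weeks were pooled and the GFP-positive cells were sorted. For the library of activated satellite cells, called ASC, the same sort was made on 17 pooled tibialis anterior muscles of mice of both sexes aged 18 to 24 weeks. These muscles had been injected 3 days earlier with 10 µM cardiotoxin, a venom toxin that destroys muscle fibres. The myoblast library was cultured from a male mouse aged 16 weeks and taken at passage 2 in a serum and basic FGF medium. The myogenic progenitor cells (MPC) were myoblasts, likewise from a male mouse aged 16 weeks, that spent 2 passages in that medium and then 5 passages in a medium with 5 µM forskolin, which activates adenylyl cyclase, 5 µM RepSox, a TGF-beta receptor inhibitor, and 3 µM of a GSK3 inhibitor labelled CHIR9901. The question set by the study is how these cell states compare in their transcripts.

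Skeletal muscle fibres form when differentiating myoblasts fuse. Myomaker, the Mymk product, is a membrane protein needed on the fusing cells, and myomixer, the small Mymx product, acts with it to complete the joining of membranes. The acetylcholine receptor of the neuromuscular junction is a channel of alpha, beta, delta and gamma or epsilon subunits, with gamma in fetal and denervated muscle and epsilon (Chrne) in innervated adult fibres. MuSK is the kinase through which the nerve's agrin signal clusters these receptors under the nerve ending. Myogenin (Myog), a transcription factor of the onset of differentiation, binds the E-box motif with letters CANNTG and was used here as the axis along which cells were ordered.

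The windows of 250 bases before the start of the genes are shown because several of these genes moved with Myog, whose product binds this motif. RefSeq windows on build GRCm38.p6 matched 4 of the 7 genes, namely Chrna1, Chrnb1, Chrng and Musk. They lie at chr2:73580339-73580588 on the minus strand for Chrna1, chr11:69795938-69796187 on the minus strand for Chrnb1, chr1:87205561-87205810 on the plus strand for Chrng and chr4:58285712-58285961 on the plus strand for Musk. Each is written 5′ to 3′ on the gene's own strand and ends at the base before the annotated start, with every CANNTG in capitals.
Chrna1 promoter: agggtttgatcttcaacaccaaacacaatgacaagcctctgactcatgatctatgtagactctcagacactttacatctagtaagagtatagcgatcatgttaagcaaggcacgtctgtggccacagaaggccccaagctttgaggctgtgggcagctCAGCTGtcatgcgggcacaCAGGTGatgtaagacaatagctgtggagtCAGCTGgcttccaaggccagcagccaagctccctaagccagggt
Chrnb1 promoter: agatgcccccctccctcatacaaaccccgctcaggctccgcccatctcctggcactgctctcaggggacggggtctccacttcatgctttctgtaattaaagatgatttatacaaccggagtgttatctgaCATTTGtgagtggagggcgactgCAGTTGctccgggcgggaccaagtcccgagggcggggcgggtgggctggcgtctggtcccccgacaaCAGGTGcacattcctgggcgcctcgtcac
Chrng promoter: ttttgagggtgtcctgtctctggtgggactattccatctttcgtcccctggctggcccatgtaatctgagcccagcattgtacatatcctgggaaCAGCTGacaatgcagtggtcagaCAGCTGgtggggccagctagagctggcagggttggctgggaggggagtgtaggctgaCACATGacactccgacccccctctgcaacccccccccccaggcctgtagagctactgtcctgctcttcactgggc
Musk promoter: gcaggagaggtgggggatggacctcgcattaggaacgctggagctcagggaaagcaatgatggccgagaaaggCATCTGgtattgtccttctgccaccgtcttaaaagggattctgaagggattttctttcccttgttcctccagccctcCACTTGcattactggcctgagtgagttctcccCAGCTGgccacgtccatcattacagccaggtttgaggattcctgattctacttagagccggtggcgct
All 4 windows held 3 copies of CANNTG, a motif that reads the same on both strands. By the position of the motif's first base before the start, they lay at -92, -73 and -44 for Chrna1, at -119, -96 and -29 for Chrnb1, at -155, -132 and -75 for Chrng and at -177, -100 and -68 for Musk. Among 32851 RefSeq windows of the same length, 66.2% held at least 1 copy and 12.2% at least 3. The form CAGCTG, which is contained in CANNTG, occurred 2 times in the Chrna1 window, 2 times in the Chrng window, 1 time in the Musk window and 0 times in the Chrnb1 window. At least 1 CAGCTG was present in 13.0% of all windows and at least 2 in 1.26%. These are matches of letters and not shown to be bound sites. Chrnd and Chrng are next to each other on chromosome 1 in the annotation, and none of the 7 genes overlaps another annotated gene.

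After filtering, the libraries held 2192 (fiSC), 6446 (ASC), 2365 (myoblast) and 9096 (MPC) cells, with median depths of 8769 to 22911 unique molecular identifiers (UMIs) per cell. Levels are UMIs of a gene added up over the cells of a library or set and scaled to a total of 1000000 (counts per 1000000, CPM), and intervals are exact 95% Poisson intervals that cover counting error only. With 1 library per group there is no replicate and no test between groups, and the library, the animals and the group cannot be told apart. Between 2 and 18 barcodes were shared by any pair of libraries. Myogenic progenitor markers were present in every library, with 10 to 12 of the 12 at 10 CPM or more. ASC also held macrophages: all 14 macrophage markers were at 10 CPM or more, with a summed level of 9914 CPM against 6.38 to 29.4 CPM in the other libraries. In all 4 libraries, fewer cells of a type and less RNA per cell cannot be told apart in a summed level.

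The fusion genes were almost silent in freshly isolated cells and highest in the cultured libraries. Mymk stood at 0.749 CPM in fiSC (15 UMIs in 5 cells, of which 10 were in a single cell), 10.1 CPM in ASC, 144.9 CPM in myoblast and 169.6 CPM in MPC. Mymx stood at 0.0499 CPM in fiSC, which is 1 UMI, 2.27 CPM in ASC, 49.6 CPM in myoblast and 64.4 CPM in MPC. Both genes therefore had the same order, from fiSC through ASC and myoblast to MPC, and the intervals of neighbouring libraries did not overlap. Myog had this order as well, at 4.04, 19.0, 216 and 357 CPM. A stricter cell filter, given below, turned the order of myoblast and MPC for both fusion genes. The log2 ratios of MPC to myoblast were then -0.78 for Mymk and -0.40 for Mymx. After each cell was thinned to 5000 UMIs, a Mymk UMI remained in 0.11% of cells in fiSC, 2.55% in ASC, 19.2% in the myoblast library and 23.0% in MPC. Thinning left out the cells under 5000 UMIs, which made up 17.2%, 14.4%, 8.16% and 5.89% of the libraries in that order. Without thinning the Mymk shares were 0.228%, 11.6%, 32.7% and 31.9%.

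The receptor subunit genes did not share an order. Chrna1, the acetylcholine-binding alpha subunit, stood at 43.3 CPM in fiSC, 209 CPM in ASC, 602 CPM in myoblast and 68.2 CPM in MPC. It was therefore highest in myoblast, and the MPC level was closer to that of freshly isolated cells than to that of the myoblasts. A Chrna1 UMI remained in 88.5% of thinned myoblast cells (exact binomial 95% interval 87.1 to 89.8%), and this share was 36.9% in ASC, 16.0% in fiSC and 14.1% in MPC. The order of fiSC and MPC in these shares is opposite to that of their CPM and is not read as a difference. Without thinning the Chrna1 shares were 93.4%, 50.6%, 23.4% and 26.3%.

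Chrnb1, the beta subunit, had its highest level in freshly isolated cells. It stood at 91.3 CPM in fiSC, 23.2 CPM in ASC, 64.5 CPM in myoblast and 16.0 CPM in MPC. Chrnd, the delta subunit, stood at 0.499 CPM in fiSC (10 UMIs), 17.2 CPM in ASC, 44.8 CPM in myoblast and 36.3 CPM in MPC. Chrng, the fetal gamma subunit, stood at 0.899 CPM in fiSC (18 UMIs), 8.28 CPM in ASC, 78.3 CPM in myoblast and 32.9 CPM in MPC. Thus fiSC carried transcripts of the alpha and beta subunits, while delta and gamma stood under 1 CPM, where 3 UMIs are 0.150 CPM. The adult epsilon subunit Chrne was at 0.150 to 0.329 CPM in all 4 libraries, with overlapping intervals.

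Musk was highest in freshly isolated cells by a wide margin. It stood at 368 CPM in fiSC (interval 359 to 376), 13.4 CPM in ASC, 62.7 CPM in myoblast and 22.4 CPM in MPC. A Musk UMI remained in 64.8% of thinned fiSC cells, and this share was 4.42% in ASC, 22.9% in the myoblast library and 7.65% in MPC. The fiSC signal was spread over all 4 clusters of that library: Musk was at 409 CPM in cluster 2 (1111 cells), 454 CPM in cluster 3 (531 cells), 229.9 CPM in cluster 4 (403 cells) and 142 CPM in cluster 1 (147 cells). Cluster 1, led by Col1a2, Mgp and Fabp4, was also where delta and gamma were least rare in fiSC, with 6 of the 10 Chrnd UMIs and 12 of the 18 Chrng UMIs. Whether reads within introns were counted is not given in the sources used here, and the part of such reads in the Musk level was not tested. For none of the 7 genes did the Poisson intervals of neighbouring libraries overlap. The share of all genes without such overlap was not counted, so this is not read as a trait of the 7.

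**Figure D1:**
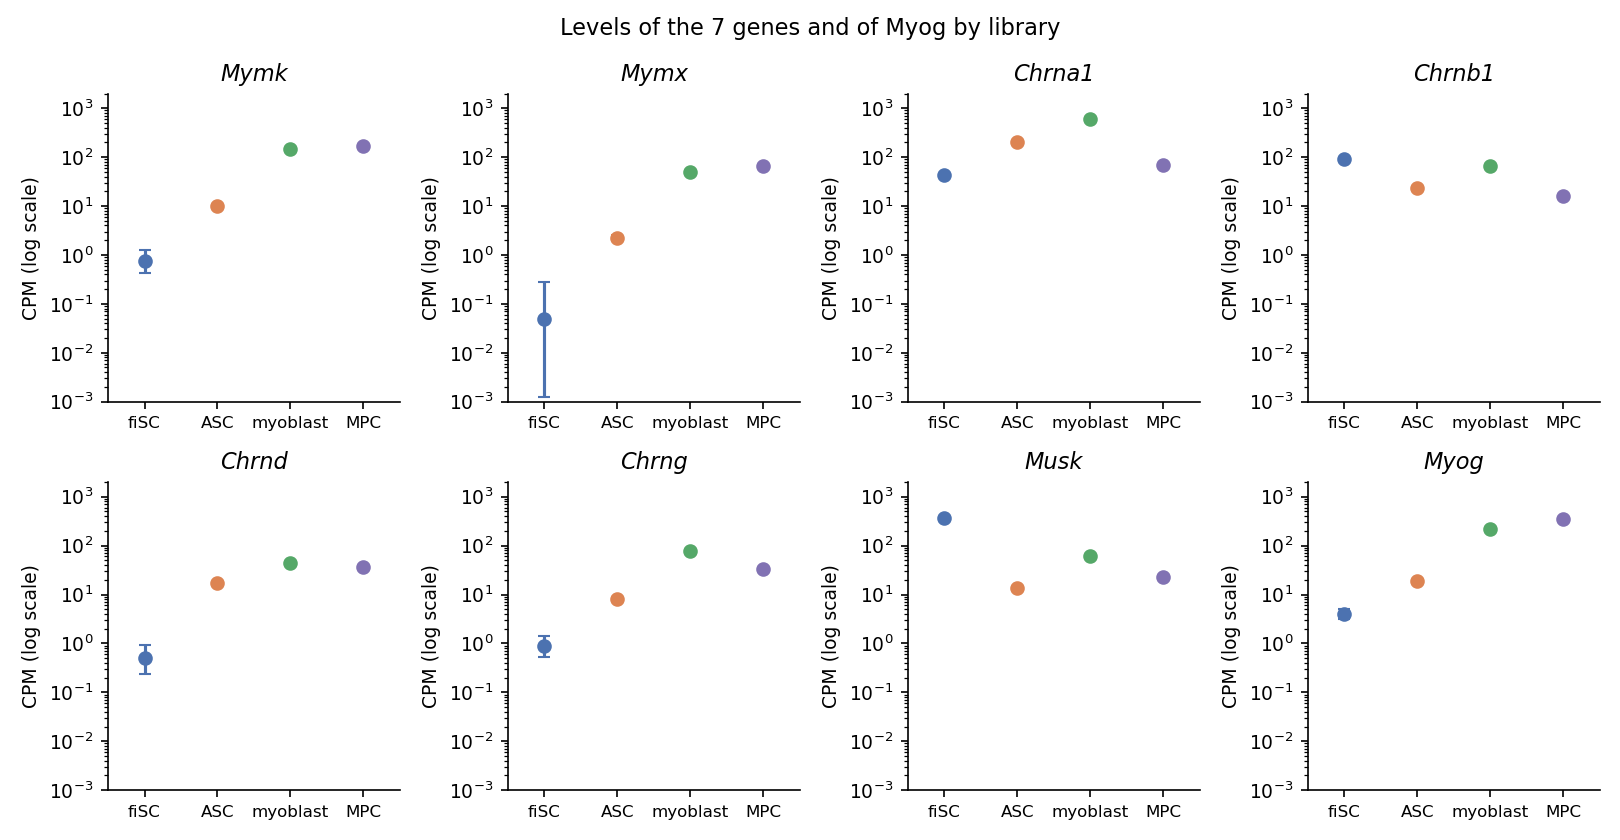
Summed level of each of the 7 genes and of Myog (CPM, log axis) in the fiSC, ASC, myoblast and MPC libraries, with exact 95% Poisson intervals (drawn, but smaller than most points). Mymk, Mymx and Myog climb from left to right, Chrna1 peaks in myoblast at 602 CPM, and Chrnb1 and Musk are highest in fiSC at 91.3 and 368 CPM.

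Activation after injury was compared first. A gene was counted as measured when the higher library had at least 10 CPM, and as higher or lower when CPM plus 5 differed 2-fold or more. By this size rule, ASC against fiSC had 3 of the 5 measured genes higher (Mymk, Chrna1 and Chrnd), where 24.6% of all 9324 measured genes were higher, and 2 lower (Chrnb1 and Musk), where 21.1% were lower. Of all genes past the rule 53.9% were higher, and with TMM scaling 64.1%; that scaling moved the median log2 ratio of all genes from 0.08 to 0.33. Chrna1 was 4.82-fold higher in ASC, Chrnb1 3.94-fold lower and Musk 27.5-fold lower (interval 26.3 to 28.8). As ASC holds macrophages, the clusters named progenitor-like from their markers were also set side by side: clusters 2, 6 and 10 of ASC (1678 cells) and clusters 2, 3 and 4 of fiSC (2045 cells). There Chrna1 was at 285 CPM in ASC and 41.3 CPM in fiSC, Chrnb1 at 31.8 and 91.5 CPM, and Musk at 15.8 and 384 CPM, a 24.3-fold difference. Chrnd was at 22.3 CPM in ASC and 0.214 CPM in fiSC (4 UMIs), and Chrng at 10.2 and 0.321 CPM (6 UMIs). In these cells 4 of 6 measured genes were higher (Mymk, Chrna1, Chrnd and Chrng), with 24.5% of all genes higher, and 2 lower, with 24% lower. Cluster 7 of ASC (736 cells), left unnamed with a progenitor marker sum of 1333 CPM, is not among them. Cluster 10 of ASC (22 cells) is among them, with a macrophage marker sum of 3963 CPM beside a progenitor sum of 1188 CPM.

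Free RNA can place UMIs in cells that do not express a gene, so the macrophage-like cells of ASC (2030 cells, median 16330.5 UMIs) were read beside the progenitor-like cells (median 49351.5 UMIs). At 5000 UMIs per cell, Chrna1 was seen in 6.46% of macrophage-like and 71.5% of progenitor-like cells. Chrnb1 was seen in 0.847% and 14.99%, Chrnd in 0.636% and 11.0%, and Musk in 0.53% and 7.26%. Mymk was seen in 0.159% and 4.59%, and Mymx in 0.212% and 0.907%. All 7 genes were thus rarer in the macrophage-like cells, with Chrng at 0.318% and 5.93%. Cluster 4 of ASC (1080 cells), left unnamed with a macrophage marker sum of 35122 CPM, is not among the macrophage-like cells.

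Culture was compared with activation in the body by setting myoblast against ASC. All 7 genes were higher in myoblast, where 14.4% of 9488 measured genes were: Mymk 14.4-fold, Mymx 21.8-fold, Chrng 9.45-fold, Musk 4.7-fold, Chrna1 2.89-fold, Chrnb1 2.78-fold and Chrnd 2.61-fold. In progenitor-like cells of both libraries only Chrng (45.6 against 10.2 CPM) and Musk (45.1 against 15.8 CPM) were past the rule, of 6 measured genes and with 15.1% of all genes higher. Chrna1 was at 530.3 against 285 CPM there. MPC against fiSC shares its libraries with the comparisons above and below; 4 genes were higher (Mymk, Mymx, Chrnd and Chrng; 27.9% of all genes) and 2 lower, Chrnb1 5.7-fold and Musk 16.4-fold (15.8%). In progenitor-like cells 2 of 5 measured genes were higher (Mymk and Chrnd; 30.3% of all genes) and 3 lower (Chrna1, Chrnb1 and Musk; 15.9%). Chrna1 changed direction between these sets, from 1.58-fold higher in MPC over all cells to 4.52-fold lower in progenitor-like cells, 9.14 against 41.3 CPM.

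In MPC against myoblast, Musk and all receptor subunit genes but Chrnd were lower, while the fusion genes differed less than 2-fold. Chrna1 was 8.83-fold lower in MPC (interval 8.63 to 9.03), Chrnb1 4.03-fold, Musk 2.81-fold and Chrng 2.38-fold. These 4 of the 7 measured genes were past the rule, where 6.44% of 9466 measured genes were lower, and 0 of 7 were higher, where 6.85% were. The log2 ratios of Mymk and Mymx were 0.22 and 0.35, and that of Chrnd -0.27, beside a median of 0.06 over all genes. The sign of the first pair was turned by a stricter cell filter, at least 2000 UMIs and at most 5% mitochondrial UMIs, to -0.78 and -0.40. That filter kept 538 of 2365 myoblast cells and 6434 of 9096 MPC cells. The median mitochondrial share was 5.89% in myoblast and 3.88% in MPC.

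The difference in Chrna1 was wider in progenitor-like cells than over all cells. In clusters 1, 2 and 3 of MPC (5139 cells) Chrna1 was at 9.14 CPM, and in clusters 1, 2, 3 and 7 of myoblast (1740 cells) at 530.3 CPM, which is 58.0-fold (interval 53.8 to 62.7). Cluster 7 of MPC (906 cells) was left unnamed and is not included. Its progenitor marker sum was 2824 CPM, against 2371 to 2606 CPM in clusters 1, 2 and 3. In cells left with 0 Myog UMIs by thinning, a set formed without cluster names, Chrna1 was 27.4-fold lower in MPC. A Chrna1 UMI was seen in 4.06% of the thinned MPC progenitor-like cells and in 89.8% of the myoblast ones. Chrnb1 was at 11.2 against 64.1 CPM, Chrng at 9.52 against 45.6 CPM and Musk at 11.7 against 45.1 CPM, all past the rule, with 7.74% of all genes lower. Chrnd was at 29.8 against 34.1 CPM. Chrnd is the neighbour of Chrng on the chromosome, and the ratio of MPC to myoblast of these 2 genes in the same cells was -0.17 and -1.80 on the log2 scale.

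Differentiation-like cells, those of clusters named from sarcomere genes and Myog (2657 in MPC and 347 in myoblast), had the same 4 genes lower, with 7.61% of all genes lower. Chrna1 was at 194 against 1149.9 CPM, a 5.92-fold difference, and Chrng at 87.4 against 272 CPM. Chrnb1 was at 28.5 against 85.3 CPM and Musk at 49.9 against 174.9 CPM. Mymk was at 535 against 849.9 CPM, Mymx at 204 against 299.7 CPM and Chrnd at 55.9 against 113 CPM, each short of the rule. The sets were not equal in maturity. The summed differentiation markers were at 4862 to 83568 CPM in the MPC clusters and at 24979 to 99255 CPM in the myoblast clusters. In MPC, clusters 4 and 6 (1161 and 442 cells) were at 7886 and 4862 CPM. The part of maturity in these differences was not tested.

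**Figure D2:**
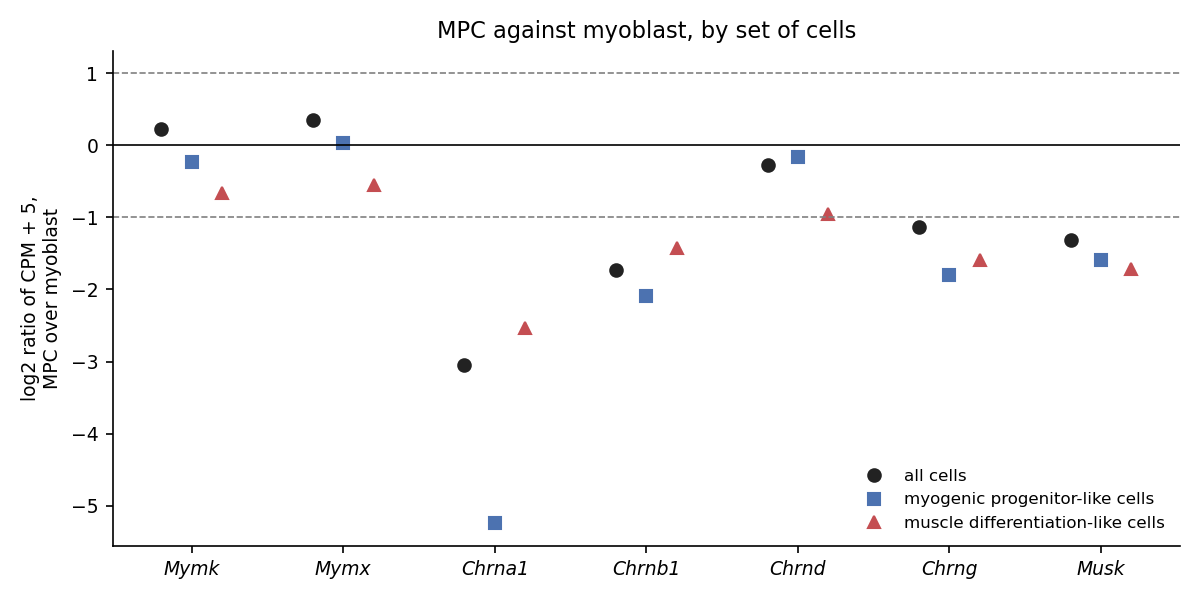
Log2 ratio of CPM plus 5, MPC over myoblast, for each gene in all cells (circles), myogenic progenitor-like cells (squares) and muscle differentiation-like cells (triangles); dashed lines mark 2-fold. Chrna1, Chrnb1, Chrng and Musk lie below the lower line in all 3 sets, Chrna1 lowest at -5.24 in progenitor-like cells, while Mymk, Mymx and Chrnd stay between the lines.

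The libraries differ in how many cells have entered differentiation, so cells thinned to 5000 UMIs were placed in bins of 0, 1, 2 to 4, 5 to 9 and 10 or more Myog UMIs. MPC had 5548, 842, 836, 963 and 371 cells in these bins and myoblast 1758, 113, 115, 94 and 92. Levels in a bin use all UMIs of its cells, so the bin of 0 also held some Myog. Myog itself was at 23.2, 187, 679, 1281 and 1998 CPM in MPC. In myoblast it was at 9.94, 235, 669, 1280 and 2405 CPM, so Myog was not equal between the libraries in every bin. The fusion genes climbed steeply with Myog in both. Mymk in MPC was at 15.2, 84.1, 363, 598 and 828 CPM from the lowest to the highest bin, and in myoblast at 17.9, 197.8, 694, 848 and 1045 CPM. Mymx was at 5.99, 24.5, 126, 239 and 315 CPM in MPC and at 3.65, 51.4, 209, 306 and 443 CPM in myoblast. Cells with 5 or more Myog UMIs exceeded cells with 0 by 43.2-fold for Mymk and 43.2-fold for Mymx in MPC, and by 52.8-fold and 102-fold in myoblast. In MPC cells with 10 or more Myog UMIs, 92.5% had a Mymk UMI and 68.2% a Mymx UMI.

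Chrna1 was high in myoblast cells of the lowest Myog bin and had a smaller step along Myog in that library than in MPC. It was at 502 CPM in myoblast cells with 0 Myog UMIs and at 767, 1018, 1117 and 1277 CPM in the bins above. In MPC it was at 18.3, 52.6, 172, 190.5 and 185.7 CPM, so that most of the climb lay between the bins of 0 and of 2 to 4 (interval of the latter 166 to 179 CPM) and the intervals of the 2 highest bins overlapped. The share of MPC cells with a Chrna1 UMI was 28.6%, 38.1% and 40.2% in those 3 bins. The step from 0 to 5 or more Myog UMIs was 2.38-fold in myoblast and 10.3-fold in MPC. Cells with 0 Myog UMIs held 66.9% of the binned Chrna1 UMIs of myoblast and 16.7% of those of MPC.

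The steps of Chrng were closer in size between the cultures. It was at 42.4, 124, 231, 259 and 321 CPM in myoblast and at 11.1, 23.0, 73.6, 90.4 and 93.7 CPM in MPC, steps of 6.83-fold and 8.18-fold from 0 to 5 or more. Musk was at 42.1, 100.3, 156, 169 and 181 CPM in myoblast and at 11.0, 18.5, 45.1, 52.7 and 46.4 CPM in MPC, steps of 4.15-fold and 4.65-fold. For both genes the MPC level was under the myoblast level in every bin.

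The step of Chrnb1 was the smallest of the 7 in myoblast, followed by that of Chrna1, and in MPC those of Chrnd and Chrnb1 were the smallest. Chrnb1 was at 60.2 CPM in the lowest and 98.4 CPM in the highest bin of myoblast, a step of 1.52-fold to 5 or more, and at 10.4 and 31.7 CPM in MPC, 3.00-fold. Chrnd was at 31.6 CPM in the lowest and 100.6 CPM in the highest bin of myoblast (3.26-fold) and at 28.7 and 56.2 CPM in MPC (1.95-fold). In the lowest bin Chrnd differed by 1.1-fold between the libraries, and in the bin of 2 to 4 by 2.31-fold.

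Within every Myog bin Chrna1, Chrnb1, Chrng and Musk were lower in MPC by the size rule. With cells thinned to 2000 UMIs the highest bin held 11 MPC and 3 myoblast cells, and there Musk (log2 ratio -0.82) and Chrng (0.36) were not past the rule. In the bins of 0, 5 to 9 and 10 or more they were the only ones, with 6.95%, 8.51% and 8.37% of all genes lower. In the bin of 1, Mymk and Chrnd were lower too, 6 of 7 against 7.82% of all genes. In the bin of 2 to 4 Chrnd joined them, 5 of 7 against 7.43%. Myoblast bin levels weighted to the bin shares of MPC gave a myoblast to MPC ratio of 1.54 for Mymk, where the observed ratio was 0.859, and 1.38 for Mymx, where it was 0.777. The same weighting gave 10.3 for Chrna1 (observed 8.91), 4.28 for Chrnb1 (4.04), 1.6 for Chrnd (1.24), 3.38 for Chrng (2.39) and 3.7 for Musk (2.82). The 2 libraries were thus reordered for the fusion genes and not for the others. The weighting makes the bin shares equal and not the Myog level within a bin. Median mitochondrial shares in the bins were 3.58 to 5.67% in MPC and 5.85 to 6.78% in myoblast, and their part in these values was not tested.

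**Figure D3:**
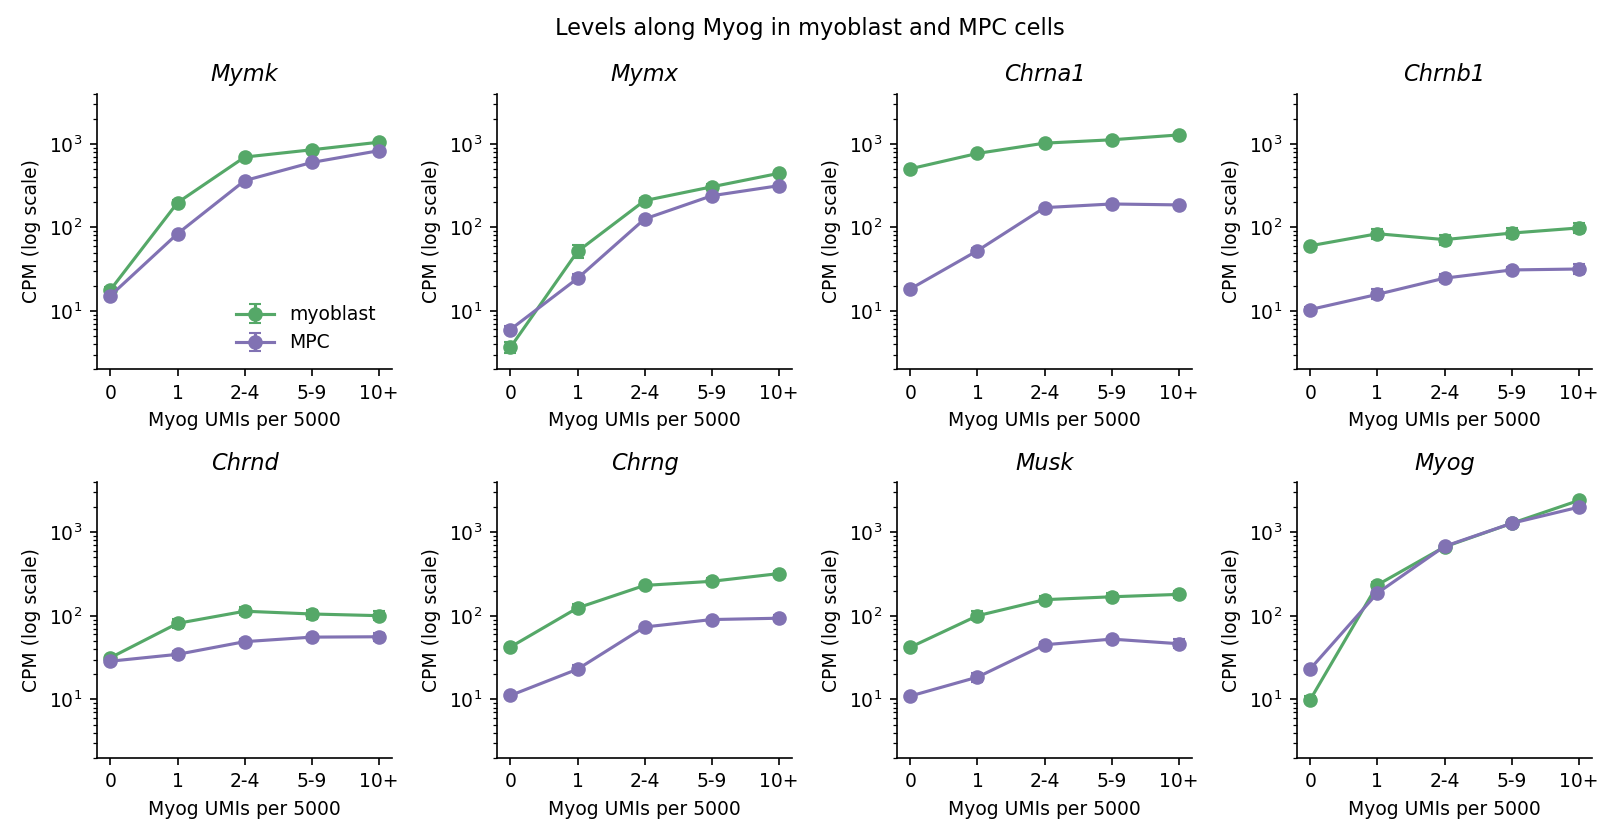
Level of each gene and of Myog (CPM, log axis, exact 95% Poisson intervals) in myoblast (green) and MPC (purple) cells by Myog UMIs in a cell thinned to 5000 UMIs. The lines of Mymk and Mymx climb in both libraries and are 2.35-fold and 2.10-fold apart in the bin of 1 and 1.26-fold and 1.41-fold in the highest bin, while Chrna1 starts at 502 CPM in myoblast and 18.3 CPM in MPC and the lines stay apart to the highest bin.

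Cells of the same Myog bin were not equal in how far they had matured. The summed level of 19 mature fibre genes, none of them among the 7, was 11043 CPM in the highest Myog bin of MPC and 32483 CPM in that of myoblast. Cells with 5 or more Myog UMIs were therefore split by mature fibre UMIs per thinned cell, bounds that were chosen after the values were seen. In MPC, 539 cells had 0 to 9, 390 had 10 to 49 and 405 had 50 or more, and Myog itself was at 1314, 1623 and 1506 CPM. Mymk was already at 349 CPM in the first set, then 709.5 and 918 CPM, a 2.63-fold difference between the ends. Mymx was at 139.6, 277 and 361 CPM (2.58-fold). In MPC the receptor genes other than Chrnb1 differed more: Chrna1 was at 38.3, 82.0 and 411 CPM (10.7-fold, interval 9.56 to 12.1). Chrng was at 13.7, 35.3 and 206 CPM, a 14.97-fold difference, with 5.94% of cells showing a UMI in the first set and 59.5% in the last.

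Musk was at 14.1, 36.6 and 96.9 CPM in the same 3 sets (6.87-fold), and Chrnd at 24.7, 38.1 and 98.4 CPM (3.99-fold). Chrnb1 was at 25.5, 30.02 and 37.4 CPM (1.46-fold). The first set of MPC holds cells with 5 or more Myog UMIs and 0 to 9 mature fibre UMIs. Chrng and Musk were there close to their levels in MPC cells with 0 Myog UMIs, 11.1 and 11.0 CPM. Chrnd was slightly under its level in the latter, 28.7 CPM. Chrna1 and Chrnb1 were above theirs, at 38.3 against 18.3 CPM and 25.5 against 10.4 CPM. The cells with 0 Myog UMIs were not split by mature fibre UMIs. Only 5 myoblast cells fell in that first set. With 50 or more mature fibre UMIs, 146 myoblast cells had Chrna1 at 1275 CPM, Chrng at 311 CPM, Musk at 183.6 CPM and Chrnd at 108.7 CPM. Mymk and Mymx stood there at 1083 and 421 CPM. The order of MPC was not seen in myoblast, where the 35 cells with 10 to 49 had Mymk at 381 CPM and Mymx at 186 CPM, well below their levels at 50 or more. Chrna1 was at 876 CPM in those 35 cells, Chrng at 212 CPM, Musk at 137 CPM and Chrnd at 77.0 CPM, each closer in proportion to its level at 50 or more than the fusion genes were. Between the end sets of myoblast, the first with 5 cells, the fold was 5.07 for Mymk (interval 3.46 to 7.78), 6.41 for Mymx (3.25 to 14.9), 2.91 for Chrng (1.70 to 5.49), 1.73 for Chrna1 (1.40 to 2.15), 1.32 for Musk (0.816 to 2.27) and 1.2 for Chrnd (0.666 to 2.43).

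**Figure D4:**
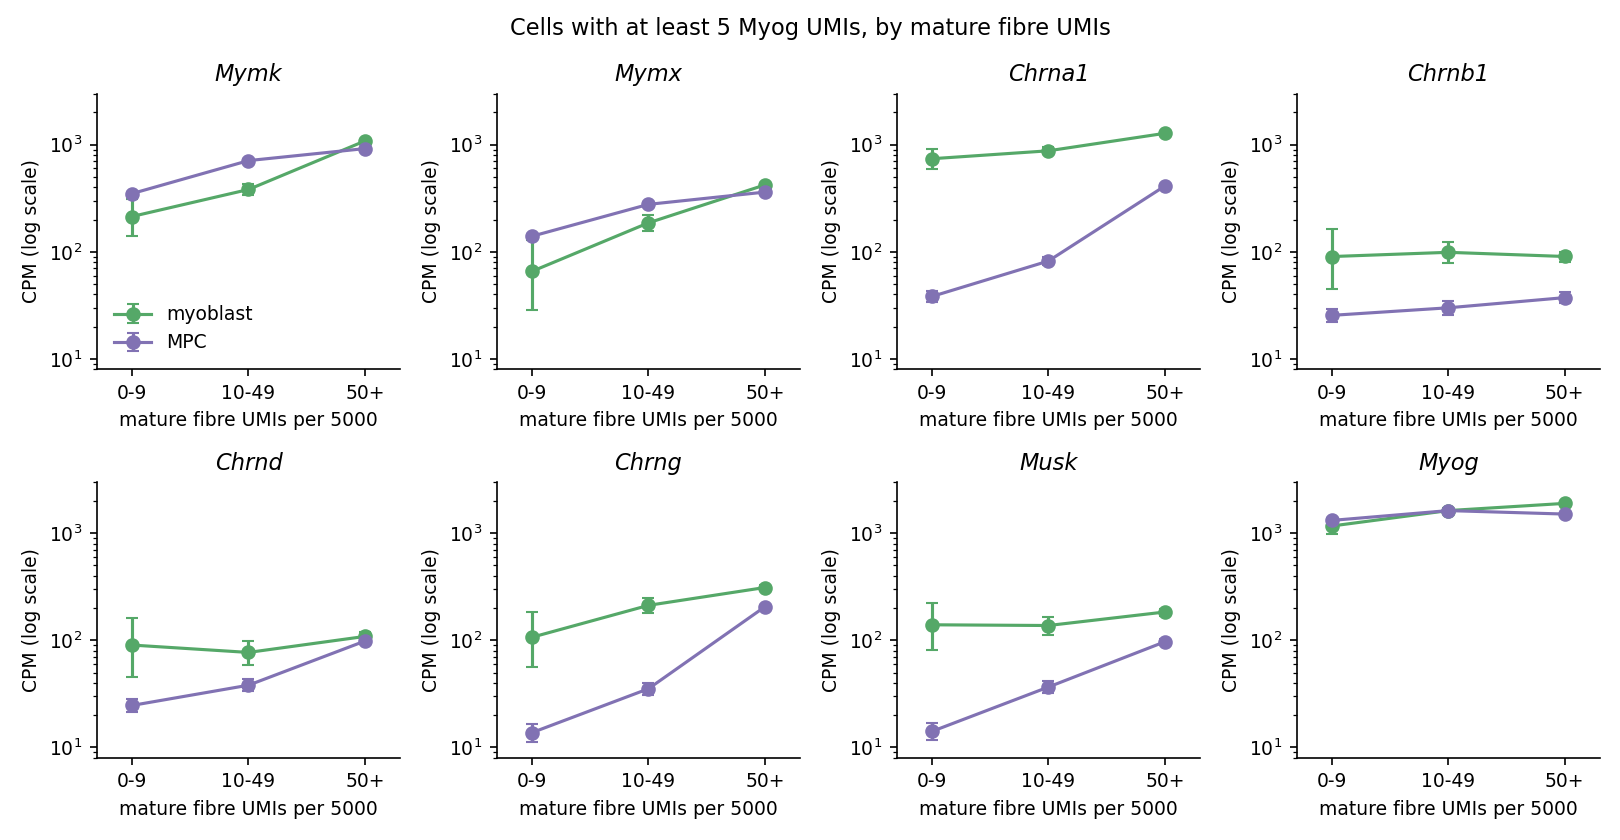
Level of each gene and of Myog (CPM, log axis, exact 95% Poisson intervals) in myoblast (green) and MPC (purple) cells with at least 5 Myog UMIs, by summed mature fibre UMIs in a cell thinned to 5000 UMIs. The leftmost myoblast point holds 5 cells. In MPC, Chrna1 climbs from 38.3 to 411 CPM and Chrng from 13.7 to 206 CPM while Myog stays between 1314 and 1623 CPM.

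The clusters of MPC, formed without these genes, showed the same split. They group cells of the same library that was split above, so they give no separate support. Cluster 4 (1161 cells) and cluster 5 (762 cells) had like Myog levels, 1178 and 1190.1 CPM, and mature fibre sums of 1984 and 27027 CPM. Mymk was at 402 CPM in cluster 4 and 853 CPM in cluster 5. Chrna1 was at 46.2 and 428 CPM, Chrng at 17.8 and 196 CPM, Musk at 19.5 and 101.6 CPM and Chrnd at 30.3 and 97.0 CPM. These 4 genes were thus under their level over all MPC cells in cluster 4 and above it in cluster 5. Clusters 9 and 10 of MPC, whose median mitochondrial shares were 0.607% and 0.746%, carried high mature fibre sums but are almost absent from the thinned cells, since 176 of 187 and 80 of 105 of their cells had fewer than 5000 UMIs.

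All cells were also placed by mature fibre UMIs alone. At 50 to 249 (626 MPC and 101 myoblast cells) the mature fibre sums were 26631 and 32750 CPM, and 2 of the 7 genes were lower in MPC, with 4.85% of all genes lower: Chrna1 at 434 against 1255 CPM and Chrnb1 at 36.9 against 90.6 CPM. Chrng was at 199.8 against 300.0 CPM, Musk at 102 against 193 CPM and Chrnd at 96.5 against 90.6 CPM. At 10 to 49 (678 and 166 cells) the fusion genes were higher in MPC, Mymk at 520.0 against 174 CPM and Mymx at 195.0 against 69.2 CPM, 2 of 7 with 7.53% of all genes higher. Myog itself was 2.14-fold higher in MPC in that bin, 1120 against 523 CPM. At 1 to 9 (6859 and 1663 cells) Mymk was at 52.1 against 16.6 CPM and Mymx at 21.1 against 4.10 CPM, with Myog at 192 against 19.9 CPM, 9.63-fold. The part of Myog in these differences was not tested. Chrna1, Chrnb1, Chrng and Musk were lower at 10 to 49, 4 of 7 with 8.27% of all genes lower. At 250 or more (59 and 132 cells) Mymk was at 437 against 929.97 CPM, and Chrna1, Chrnb1 and Musk were lower as well, with 7.24% of all genes lower. Myog was at 627 against 1017 CPM there and at 1180 against 1926 CPM at 50 to 249. Mymk and Mymx in MPC were less at 250 or more than at 50 to 249, where they stood at 857 and 313 CPM, and Mymx was at 178 CPM in the former.

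In ASC few cells had Myog, 191 of 5520 thinned cells. The 70 cells with 2 or more Myog UMIs had Mymk at 114 CPM against 7.37 CPM in cells with 0, a 15.4-fold step, and Mymx at 54.0 against 1.08 CPM. Chrng was at 34.6 against 7.52 CPM, Musk at 35.2 against 12.5 CPM and Chrnd at 38.2 against 16.4 CPM. Chrna1 was at 417 against 202 CPM and Chrnb1 at 36.5 against 22.6 CPM, 2.06-fold and 1.61-fold. As in myoblast, the alpha and beta subunits thus had the smallest steps with Myog and the fusion genes the largest. The cells with 0 Myog UMIs include the macrophages.

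Single cells seldom showed many of the 7 genes at once at this depth. At least 5 of the 7 were seen in 168 of 2172 thinned myoblast cells (7.73%), 238 of 8560 MPC cells (2.78%), 2 of 5520 ASC cells (0.0362%) and 0 of 1815 fiSC cells, which allows a share of up to 0.165%, taken as 3 cells of that total. In MPC cells with 5 or more Myog UMIs, Mymx was seen in 61.4% of those with a Mymk UMI and in 45.5% of those without. Chrng was seen in 42.4% of those with a Chrna1 UMI and in 12.3% of those without. In MPC cells with 0 Myog UMIs, Chrna1 was seen in 15.9% of those with a Mymk UMI and in 5.72% of those without, whereas in myoblast the shares were 92.5% and 86.2%.

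Likeness of pattern was described by Pearson's r of log2(CPM plus 1) over the 10 sets formed by the 5 Myog bins of MPC and of myoblast, among 8240 genes. The 10 sets come from 2 libraries, so r describes these sets and carries no p. Since the sets were formed by Myog, a high r with Myog, or between genes that climb along the bins, restates that climb. Likewise, a high r among Chrna1, Chrnb1, Chrng and Musk in part restates that all were lower in MPC in every bin. Along Myog in MPC the steps of Chrna1 and Chrnb1 were unlike, 10.3-fold and 3.00-fold. Mymk and Mymx had r of 0.99 with each other and 0.98 and 0.99 with Myog. Chrna1 had r of 0.99 with Chrnb1 and 0.96 with Musk, and 0.58 with Mymk. Chrng had r of 0.98 with Musk and 0.95 with Chrnd. The most alike genes outside the 7 were Cobl, Srl and Klhl31 for Mymk, Tmem38b, Flnc and Srl for Mymx, Lrrn1, Eno3 and Hspb1 for Chrna1, and Psmd8, Tulp4 and Asb5 for Chrnb1. They were Myl6b, Fabp3 and Atp9a for Chrnd, Jsrp1, Tnnt2 and Hacd1 for Chrng, and Trim54, Ehbp1l1 and Hes6 for Musk, all with r between 0.985 and 0.997.

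Other genes of the same processes were taken from lists. Of the fusion and adhesion list, 26 of 31 genes were measured in MPC against myoblast, with 0 higher and 6 lower and a median log2 ratio of -0.10 (all genes 0.06). Over all genes of this comparison 6.85% were higher and 6.44% lower, the shares beside which the counts of each list are to be read. N-cadherin (Cdh2), which joins myoblasts before fusion, was at 55.5 against 511 CPM, and the junction gene Jam2 at 9.5 against 78.9 CPM. The integrin gene Itga3 was at 1.49 against 34.4 CPM, and the ferlin gene Myof, which acts in membrane fusion, at 128 against 618 CPM. Of the postsynaptic list 25 of 30 were measured, with 2 higher, 3 lower and a median of -0.13. Rapsn, the scaffold that anchors the receptor, was at 18.8 against 69.8 CPM, and Src at 7.58 against 25.8 CPM. Higher in MPC were the synaptic collagen gene Col13a1, 45.0 against 8.85 CPM, and the dystroglycan gene Dag1, 321 against 98.8 CPM.

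Of 12 genes known from denervated muscle, 10 were measured, with 0 higher and 5 lower (median -0.90). Ankrd1, Fbxo32 and Ncam1 were among the lower ones, and Ankrd1 is also known as a target of YAP. All 26 early differentiation genes were measured, of which 3 were higher and 4 lower (median -0.38). The mature fibre list had 0 higher and 5 lower of 17 measured (median -0.56). The progenitor list had 4 higher of 11 measured, with Heyl, Hey1 and Notch3 of the Notch pathway among them, and 1 lower, Myod1 (median 0.26). The other 11 nicotinic subunit genes were all under 10 CPM in both cultures.

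In ASC against fiSC, the fusion and adhesion list had 5 higher and 4 lower of 22 measured (median -0.23, all genes 0.08), with Cdh2 at 119 against 6.44 CPM and Myof at 159 against 14.3 CPM. With 24.6% of all genes higher and 21.1% lower here, these counts and those of the postsynaptic list lie near the shares of all genes. The postsynaptic list had 4 higher and 3 lower of 21 (median 0.14), with Nrg1 at 91.8 against 8.74 CPM and Utrn, the utrophin gene, at 109 against 466 CPM. The denervation list had 2 higher and 6 lower of 10 (median -1.43), led by Gadd45a at 30.4 against 582 CPM. The early differentiation list had 4 higher and 1 lower of 13 (0.36), the mature fibre list 4 and 2 of 7 (1.03), and the progenitor list 0 and 10 of 12 (-2.69).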

How the data were processed

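Single-cell libraries were made with the 10x Genomics 3′ v3.1 chemistry, per the labels' protocols. The deposited values are UMI counts per gene and cell barcode. The submitters' processing notes name STAR 2.7.10b and build GRCm39; the annotation, strand setting and intron counting are not given in the sources used here. Cells were kept from 1000 UMIs and 500 genes upwards if no more than 10% of their UMIs were mitochondrial. Scrublet doublets were removed with scanpy 1.11.5: 59, 297, 47 and 799 cells of fiSC, ASC, myoblast and MPC. The automatic doublet threshold was used in ASC; in the other libraries the highest scores were removed at a rate of 0.8% per 1000 cells, with cells tied at the bound removed too.

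Counts were summed per library or set of cells and scaled to CPM. With 1 library per group no test was made. A gene was measured at 10 CPM or more in the higher set and counted at a 2-fold ratio of CPM plus 5. Each library was clustered (2000 variable genes, 30 components, 15 neighbours, Leiden resolution 0.5) without the 7 genes, the listed genes and a fixed list of cell cycle genes, and clusters were named from marker lists. Histone genes and other cell cycle genes were not removed. Such genes led some clusters, among them clusters 2 and 7 of ASC and clusters 1 and 2 of myoblast. Cells were thinned to 5000 UMIs for bins and shares. Intervals are exact 95% Poisson or binomial intervals and cover counting error only; folds have exact conditional binomial intervals. TMM factors came from edgeR 4.0.16. The code was tested on simulated data. The 7 genes and the lists were chosen with earlier results of these data known. Named are the 7 genes, Chrne and Myog, up to 4 genes per list with the largest MPC to myoblast ratio (for ASC against fiSC, that ratio) and the 3 most alike genes per member; other names were chosen after their values were seen. For 1 gene that this rule names, the values are not reported here.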

Additional observations from a re-analysis of the deposited data

How the results depend on the processing

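The alternatives were TMM scaling, a stricter cell filter, doublets kept, a pseudocount of 1 CPM, no minimum level, named muscle clusters only, thinning to 2000 UMIs or none, bins from unthinned Myog CPM, and levels from the thinned UMIs. Under all run for MPC against myoblast over all cells, 4 of the 7 genes were past 2-fold. Of all genes, 1258 (13.3%) were past it in either direction in the main setting. That number was 1221 to 1572 under the alternatives for which it was counted. The log2 ratio ranged from -4.18 to -3.01 for Chrna1, -1.94 to -1.70 for Chrnb1, -1.88 to -1.06 for Chrng and -1.61 to -1.24 for Musk. Mymk ranged from -0.78 to 0.36 and Mymx from -0.40 to 0.47, negative with the stricter filter only. In the highest Myog bin, 3 to 5 genes were past 2-fold, counted in either direction, with 18.7% of all genes past it in the main setting. Thinned to 2000 UMIs, that bin held 11 MPC and 3 myoblast cells. There Chrng turned to 0.36 from -1.72 and Musk fell short of 2-fold (-0.82 from -1.85). Mymk was at 1.62, past 2-fold as higher in MPC, and Mymx at 0.11. In the highest mature fibre bin 4 to 6 genes were past 2-fold, with 9 MPC and 1 myoblast cells at 2000 UMIs, where Chrnb1 went from -1.35 to 0. In the main setting 13.1% of all genes were past 2-fold in that bin. For both bins the share of all genes was not worked out under the alternatives. The counts of the 7 genes there are therefore not read as a result about them. No paired analysis was possible because each group has 1 library. Depth limits Mymx, Chrnd and Chrng in fiSC, where 3 UMIs are 0.150 CPM.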

Other observations

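Further genes of the junction were followed along Myog, chosen after their values were seen. Rapsn, the receptor scaffold, was at 18.7 CPM in MPC cells with 0 Myog UMIs and 16.7 CPM in those with 10 or more, while in myoblast it was at 60.4 and 128 CPM. Dok7, the cytoplasmic activator of MuSK, was at 2.59 and 74.5 CPM in MPC and at 13.8 and 71.6 CPM in myoblast. Erbb3, a neuregulin receptor gene, was at 1.62 and 45.9 CPM in MPC and at 2.09 and 98.8 CPM in myoblast. Lrp4, the agrin receptor gene, was at 14.0 and 33.4 CPM in MPC and at 24.1 and 64.3 CPM in myoblast. The highest bin thus had more Dok7, Erbb3 and Lrp4 than the lowest in both cultures, and more Rapsn in myoblast alone. Mature fibre sums differ between these bins of the 2 libraries, and their part was not tested.

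Transcripts of the receptor family were also seen outside the muscle set of subunits and outside muscle-like cells. Chrna7, the alpha 7 subunit gene of neurons and immune cells, was at 24.4 CPM in fiSC, 1.98 CPM in ASC, 1.9 CPM in myoblast and 0.11 CPM in MPC. Chrna9 was at 1.5, 2.41, 3.61 and 5.87 CPM in the same order. In the fibroblast-like cluster of MPC (394 cells) Chrna1 was at 55.8 CPM and seen in 22.0% of 391 thinned cells, against 9.14 CPM and 4.06% in the progenitor-like cells of that library. Chrnb1, Chrnd, Chrng and Mymk were at 2.78, 3.66, 2.02 and 4.16 CPM in that cluster. The 34 fibroblast-like cells of myoblast had Chrna1 at 15.3 CPM.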
